A study of Mus musculus with 8 samples.

Results

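The miRNA repertoire described here is that of CD34+/CD105- cells sorted from the renal artery of 4 mice after sham surgery, which are 4 of the 8 samples of the series. An assay was taken as part of the repertoire where it targeted a miRNA and had a threshold cycle (Ct) below 35 in at least 3 of the 4 sham mice. Of the 750 miRNA assays, 111 met this, which is 14.8% of them. A Ct is the PCR cycle at which a product becomes visible, so a lower Ct means more template, and 1 cycle is a 2-fold difference where the PCR doubles its product each time.

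The artery was digested with collagenase and single cells were sorted by flow cytometry for CD34 and against CD105, and total RNA was profiled by real-time PCR. All 4 mice had sham surgery in place of renal ischemia. The sources used here give no age or strain of the mice and no number of sorted cells. CD34 marks vascular endothelium, blood progenitors and a class of stromal cells around vessels. CD105 (endoglin) is a co-receptor for TGF-beta ligands on activated endothelium and many mesenchymal stromal cells. No mRNA was measured, so neither sorting marker could be checked in the sorted cells.

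A miRNA is an RNA of about the length of a PCR primer that guides Argonaute proteins to complementary messenger RNAs, mostly through its seed, bases 2 to 8 from the 5′ end. miRNAs with the same seed share most predicted targets and form a family. A hairpin precursor has 2 arms, and usually 1 of them accumulates as the guide while the other, the passenger arm (marked # in the older names), is degraded. Arterial endothelium is known for miR-126, which lies in an intron of Egfl7, and for the miR-23/27/24 clusters and miR-92a. Fibroblasts and other mesenchymal cells are known for miR-199a, miR-214 and the large imprinted cluster between Dlk1 and Dio3, and smooth muscle for miR-143 and miR-145.

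Sequences were taken from RefSeq (GRCm38.p6), which gave a mature sequence for 78 of the 109 miRNA names among the 111 assays. The seed is in capitals in each. The first set holds the let-7 family members that separated detected from undetected assays.

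let-7c: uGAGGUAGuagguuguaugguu

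let-7b: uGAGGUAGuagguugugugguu

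let-7d: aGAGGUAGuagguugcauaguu

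let-7g: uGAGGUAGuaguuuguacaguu

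let-7a: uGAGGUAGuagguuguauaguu

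let-7f: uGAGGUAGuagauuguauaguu

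The second set holds the vascular miRNAs of high level and the pair miR-222 and miR-221, which share a seed but not a level. miR-126-3p is encoded at chr2:26591402-26591423 (plus strand), and miR-222 and miR-221 lie side by side on the minus strand of chromosome X at chrX:19146901-19146923 and chrX:19146307-19146329.

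miR-126-3p: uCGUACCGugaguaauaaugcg

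miR-24: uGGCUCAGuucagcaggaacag

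miR-92a: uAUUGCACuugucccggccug

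miR-218: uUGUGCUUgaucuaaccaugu

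miR-222: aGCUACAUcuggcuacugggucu

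miR-221: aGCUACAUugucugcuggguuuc

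The third set holds the arms of the miR-30a and miR-30e hairpins, whose measured ratios differed.

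miR-30a: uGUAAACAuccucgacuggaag

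miR-30a-3p: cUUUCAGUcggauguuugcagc

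miR-30e: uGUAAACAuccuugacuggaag

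miR-30e-3p: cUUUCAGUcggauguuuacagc

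The fourth set holds members whose level moved most between mice or whose raw Ct hardly moved. The miR-190b sequence is that of the mouse, while the assay is named for the rat.

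miR-190b: uGAUAUGUuugauauuggguug

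miR-1896: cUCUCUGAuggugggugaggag

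miR-1894-3p: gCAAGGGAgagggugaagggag

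miR-106b: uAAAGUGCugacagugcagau

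miR-188-5p: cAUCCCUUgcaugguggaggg

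miR-29b#: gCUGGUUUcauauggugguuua

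Detection differed between the mice. Ct was below 35 for 127 miRNA assays in mouse 1, 75 in mouse 2, 142 in mouse 3 and 163 in mouse 4, so mouse 2 stood low. Of all 750 assays, 68 were detected in 4 mice, 43 in 3, 35 in 2, 36 in 1 and 568 in none. The 43 members detected in 3 mice lacked mouse 2 in 41 cases and mouse 4 in 2 cases (rno-miR-190b and miR-1896), and none lacked mouse 1 or mouse 3. In mouse 2, 36 of those 41 assays had no Ct and 5 had a Ct of 35 or above. Set against the reference of mouse 2, the mean level of these 41 in the other 3 mice corresponds to a Ct between 27.2 and 37.5 (median 31.7), and to a Ct below 35 for 39 of them. By the rule, these 41 are members because all 3 other mice detected them. In those mice their median level was -9.31, against -7.24 for the 68 members detected in all 4 mice. Of the 68, 16 lay below -9.31. In bulk samples fewer cells of a type and less RNA per cell cannot be told apart.

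The members came unequally from the kinds of assay. The assays fell into 2 sets of 375 by their catalogue numbers, and 78 of the first set (20.8%) were members against 33 of the second (8.8%). Assays for passenger arms gave 5 members out of 115 (4.35%). The member assays were named for mouse (97), human (9) and rat (5).

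Levels are given as reference Ct minus miRNA Ct, which is the deposited delta Ct with its sign turned, in cycles on a log2 scale. The reference subtracted was a single value per mouse and assay set and its identity is not given in the sources used here. It was 20.7, 22.4, 19.0 and 17.9 in mice 1 to 4 for the first set and 21.5, 23.0, 20.2 and 18.8 for the second. Mouse 2 thus had the latest reference and mouse 4 the earliest, a difference of 4.51 cycles in the first set. The small nucleolar RNA snoRNA202, a control assay of the second set, moved the same way, with Ct 25.03, 26.4, 23.7 and 21.8. Its level after subtraction had an SD of 0.24, the smallest among the controls. The other controls were later: snoRNA135 had Ct 30.3, 31.7, 28.0 and 26.6 in the first set and 34.6, 37.8, 33.3 and 30.7 in the second. The Y1 RNA had Ct 32.5, 35.9, 28.8 and 27.7 in the first set and none in the second. After subtraction, with Ct above 35 included, the SD was 0.42 and 1.16 for snoRNA135 in the first and second set. For Y1 in the first set it was 1.78. The plant miRNA miR159a, which mouse cells lack, had no Ct in any sham well of either set.

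Mean levels of the 111 members spanned 20.38 cycles, from 5.29 to -15.09, with a median of -8.03. A level above 0, that is above the reference, was found for 6 members. Another 14 lay between 0 and -5, 63 between -5 and -10, and 28 at or below -10. The bulk of the repertoire therefore sat well below its reference.

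None of the 8 highest members was on a list of cell type miRNAs, and 7 of the 8 belonged to the second assay set. rno-miR-190b came first, with Ct 14.8, 15.0 and 16.5 in mice 1 to 3 and a Ct of 39.3 in mouse 4, which the rule leaves out. Its mean level of 5.29 ± 2.52 (SD, n = 3) therefore describes 3 mice that were very high while the remaining mouse was at the edge of the assay. A second assay of that name, hsa-miR-190b, had Ct 14.7 and 19.2 in mice 1 and 2. It had no Ct in mice 3 and 4 and was not a member, so the first place rests on the rat-named assay alone. miR-1897-5p was second, with Ct 14.9, 23.8, 14.9 and 15.4 and a mean level of 3.63 ± 3.17 (SD, n = 4), low in mouse 2 alone. miR-673, which is encoded in the Dlk1-Dio3 region, had Ct 15.0, 15.9, 21.0 and 22.1 and a mean level of 2.39 ± 5.21 (SD, n = 4). Mice 1 and 2 were high for it and mice 3 and 4 low, with no value between.

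The other high members of that set were steadier. miR-1937b had Ct 17.95, 22.3, 16.9 and 16.7, a mean level of 2.41 ± 1.30 (SD, n = 4). miR-1937c followed it at a distance of 1.42 ± 0.05 cycles (SD, n = 4) in all mice, the tightest of the 15 within-mouse differences computed between related assays. miR-2134 had Ct 20.8, 22.9, 19.5 and 18.02 and a mean level of 0.59 ± 0.29 (SD, n = 4). hsa-miR-378, a miRNA encoded in a gene of mitochondrial metabolism (Ppargc1b), had Ct 21.3, 20.7, 20.9 and 20.8. Its level was less steady than its raw Ct, with a mean of -0.034 ± 1.81 (SD, n = 4). miR-720 had Ct 21.7, 26.7, 21.4 and 20.8 and a mean level of -1.76 ± 1.44 (SD, n = 4). Both miR-720 and miR-1274a (rank 55) were later withdrawn from the miRNA registry as fragments of transfer RNA, and their values are given here under the assay names. Whether miR-1937b, miR-1937c, miR-2134, miR-2138, miR-2146 and miR-2182 are true miRNAs, or remain in the registry, was not tested. No mature sequence was obtained here for these either, nor for some others such as miR-30b.

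**Figure D1:**
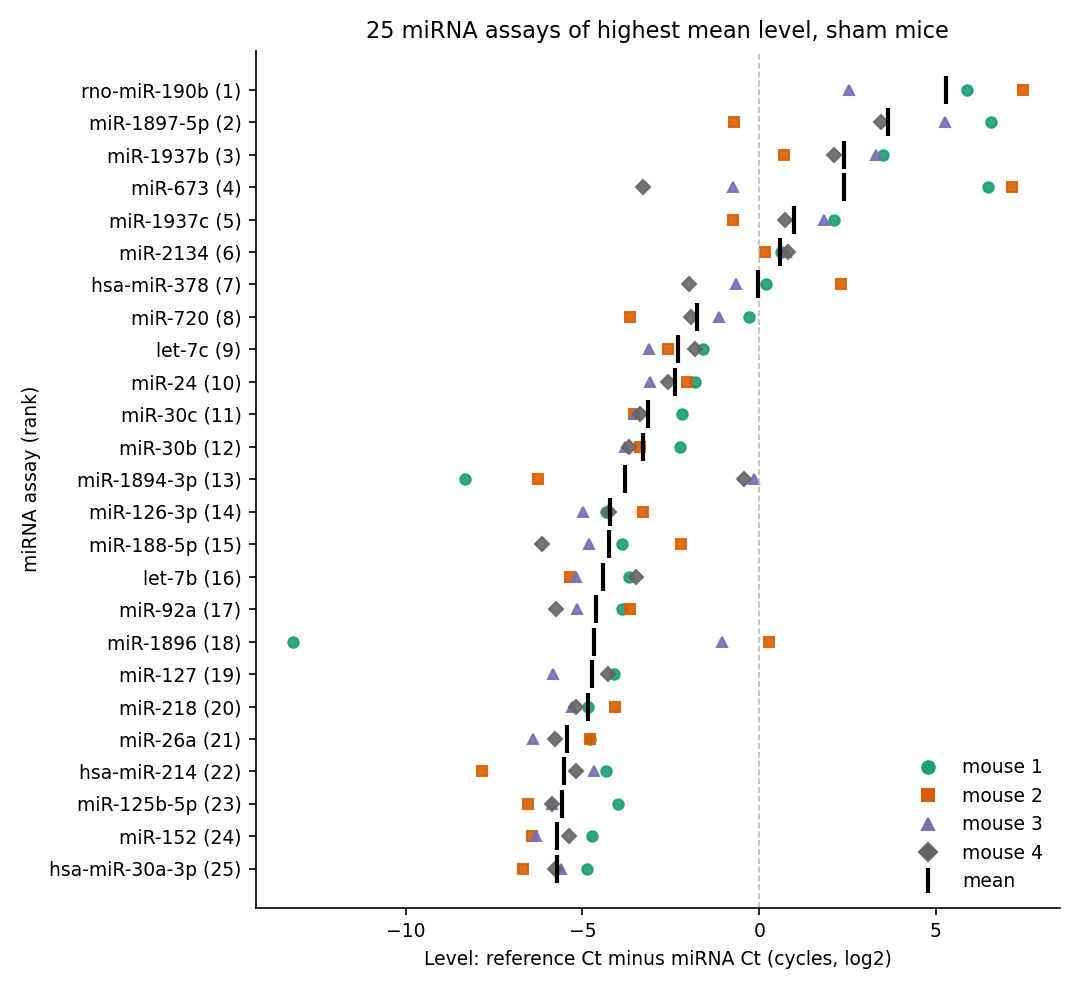
Level (reference Ct minus miRNA Ct, cycles on a log2 scale) of the 25 member assays of highest mean in sham mice, 1 symbol for each mouse with a Ct below 35 and a bar for the mean. let-7c, miR-24, miR-30c and miR-30b lay close together in all 4 mice, while miR-673, miR-1894-3p and miR-1896 were spread over 8 or more cycles.

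Below these came conserved miRNAs whose values lay closer together. let-7c, a member of the family that represses growth and stem cell genes, had Ct 22.2, 25.03, 22.1 and 19.8 and a mean level of -2.29 ± 0.71 (SD, n = 4). miR-24, from the vascular miR-23/27/24 clusters, had Ct 22.5, 24.5, 22.1 and 20.5 and a mean level of -2.37 ± 0.57 (SD, n = 4). The difference of 0.088 between their means changed sign among mice. miR-30c and miR-30b followed at -3.15 ± 0.65 and -3.28 ± 0.71 (SD, n = 4 each), and miR-30c was the higher in 3 of 4 mice. miR-24 exceeded miR-30c in all 4 mice.

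miR-126-3p, the miRNA most closely tied to endothelium, stood at rank 14 with Ct 24.98, 25.7, 24.0 and 22.2 and a mean level of -4.21 ± 0.70 (SD, n = 4). The mice did not separate for it beyond 1.70 cycles. miR-218, which is encoded in the Slit2 and Slit3 genes for guidance proteins, was at rank 20 with a mean level of -4.85 ± 0.55 (SD, n = 4) and lay below miR-126-3p in every mouse. miR-92a of the miR-17-92 cluster was at rank 17 with -4.61 ± 1.01 (SD, n = 4), and let-7b at rank 16 with -4.42 ± 0.98 (SD, n = 4). miR-127 from the Dlk1-Dio3 cluster was at rank 19 with Ct 24.7, 24.8 and 22.2 in mice 1, 3 and 4 and no Ct in mouse 2.

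The order was firm over large distances only. Of the 110 pairs of neighbours, 10 had the same order in every mouse that measured both. Over all 2278 pairs of the 68 members measured in 4 mice, 67.7% kept 1 order in all mice. This was 6.65% of pairs whose means lay within 1 cycle, 39.4% at 1 to 2 cycles, 78.2% at 2 to 4 cycles and 97.1% at 4 to 8 cycles. In the top 20 of each mouse taken alone, 13 assays recurred in all 4 mice: miR-1897-5p, miR-1937b, miR-673, miR-1937c, miR-2134, hsa-miR-378, miR-720, let-7c, miR-24, miR-30c, miR-30b, miR-126-3p and miR-92a. Ranks that differ by a few places are thus not distinct at 4 mice.

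At the other end were miR-367, miR-455, miR-467b, hsa-miR-206 and miR-221. miR-367, which shares a cluster with the embryonic stem cell miRNAs of the miR-302 family, was last with Ct 34.99, 33.4 and 34.5 in mice 1, 3 and 4 and a level of -15.09 ± 1.26 (SD, n = 3). It was also the member nearest the limit, by its Ct in mouse 1, and it lay below miR-455 in all 3 mice. miR-30d and miR-1896 were the next nearest inside, each with a third-lowest Ct of 34.7. Just outside were hsa-miR-671-5p, with a third-lowest Ct of 35.1, and rno-miR-148b-5p and hsa-miR-143, both at 35.2.

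Across the 68 members with 4 values the median SD between mice was 1.27 cycles, with quartiles of 0.79 and 1.76. The SD was under 1 cycle for 26, between 1 and 2 for 29 and over 2 for 13. The 38 members with a mean Ct of 27 or later had a median SD of 1.43, against 0.99 for the 30 brighter ones. Members of the first assay set had a median SD of 1.01 (n = 42) and those of the second 1.52 (n = 26). Leaving out mouse 2 lowered the overall median to 0.93, and leaving out another mouse gave 1.15 to 1.21.

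Among these members with 4 values, the smallest SD belonged to miR-2182 (0.28), miR-2134 (0.29), miR-126-5p (0.34), miR-19b (0.41), miR-193b (0.50), miR-140 (0.55), miR-218 (0.55) and miR-24 (0.57). Of these, miR-126-5p had levels of -7.07, -6.56, -7.40 and -7.00. The 4 values lay within 0.84 cycles.

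The largest SD among members with 4 values belonged to miR-673 (5.21), miR-1894-3p (4.13), miR-34b-3p (3.21), miR-1897-5p (3.17), miR-497 (2.77), rno-miR-632 (2.50), miR-2138 (2.46) and miR-363 (2.19). miR-1894-3p had Ct 29.8 and 29.3 in mice 1 and 2 against 20.4 and 19.3 in mice 3 and 4. It was thus divided between the same pairs of mice as miR-673, in the opposite direction. miR-1896 had Ct 34.7 and 35.5 in mice 1 and 4 against 22.8 and 21.3 in mice 2 and 3, and its mean level over 3 mice had an SD of 7.42. Mice 1 and 2 stood apart from mice 3 and 4 for miR-673 and miR-1894-3p. They also had the fewest detected assays (127 and 75 against 142 and 163). What part lower detection had in these splits was not tested.

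**Figure D2:**
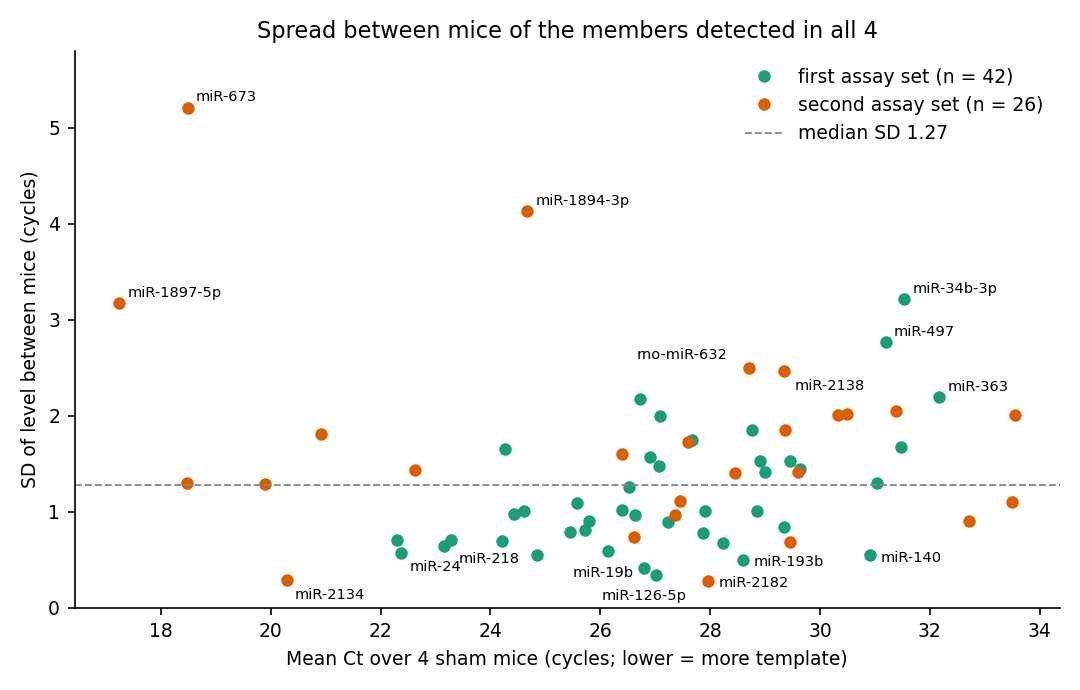
SD between mice of the level (cycles, log2) against mean Ct for the 68 members detected in all 4 sham mice, 1 point for each assay, coloured by assay set, with the median SD of 1.27 as a dashed line. miR-673, miR-1894-3p and miR-1897-5p had an SD over 3 at mean Ct below 25, whereas miR-34b-3p with an SD over 3 had a late Ct.

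The raw Ct of some members moved little between mice, unlike the reference. For 51 of the 68 the SD of the raw Ct exceeded that of the level, so subtracting the reference brought the mice together, and the median SD of the raw Ct was 1.80. For the other 17 the raw Ct was the steadier. The raw Ct of 4 assays varied by less than 1 cycle over mice in which the reference varied by more than 4 cycles. miR-29b# had Ct 29.3, 29.5, 29.1 and 29.6. hsa-miR-378 had an SD of the raw Ct of 0.24, and miR-106b, of the cell cycle cluster miR-106b-25, had Ct 26.4, 26.6, 26.7 and 27.1. miR-188-5p had Ct 24.5, 24.6, 23.8 and 24.1. In all 4 the level was highest in mouse 2 and lowest in mouse 4, the order of the reference Ct itself. The identical order is built into the subtraction for any assay whose Ct stays the same, and whether RNA input differed between the mice was not tested.

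**Figure D3:**
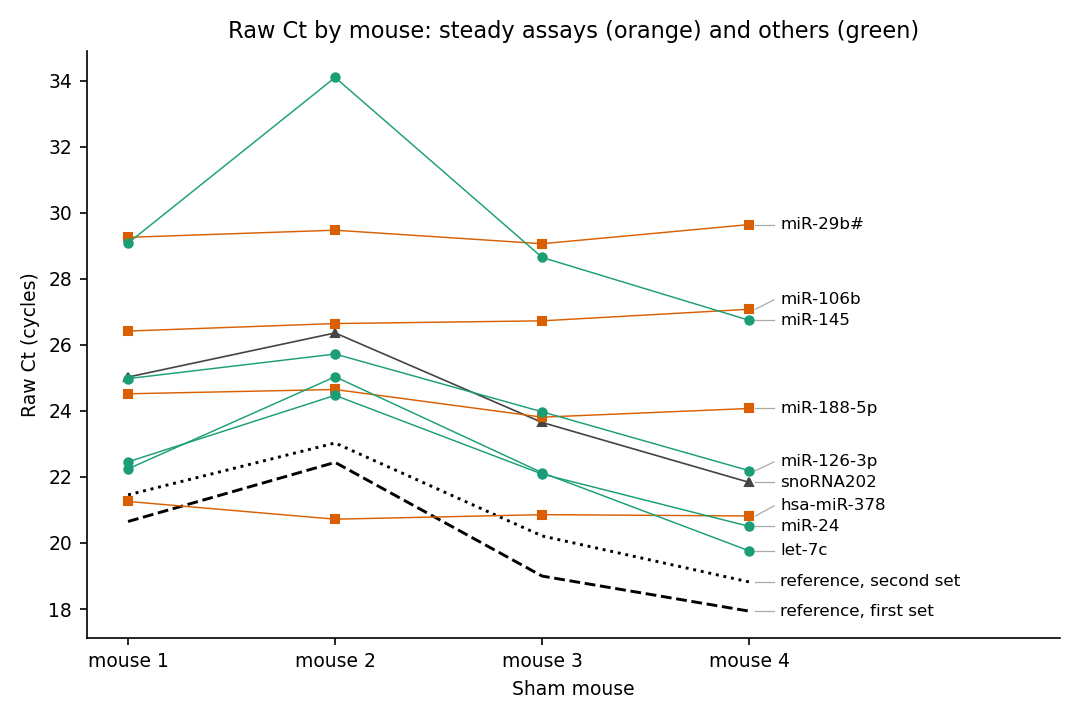
Raw Ct (cycles) in each sham mouse for the reference of both assay sets (black), snoRNA202 (grey), 4 miRNAs whose raw Ct varied by less than 1 cycle (orange) and 4 others (green). Lines join the values of an assay and imply no order of mice; let-7c, miR-24 and miR-126-3p had their latest Ct in mouse 2 and their earliest in mouse 4, as the reference did, and the orange assays did not.

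Between mice, the levels of the 68 shared members correlated with a Spearman rho of 0.90 for mice 3 and 4, 0.86 for mice 1 and 3, 0.83 for mice 1 and 4 and 0.79 for mice 1 and 2. The pairs of mouse 2 with mice 3 and 4 had 0.78 and 0.71. These are correlations across assays, which are not independent replicates, taken over a wide range of levels. In cycles, the median absolute difference between mice 3 and 4 was 0.80, and it was 1.22 to 1.66 for the other pairs. More than 3 cycles separated mice 3 and 4 for 3 of the 68 members and mice 2 and 4 for 18.

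The let-7 list had 4 members out of 9 miRNAs with an assay, and they differed widely. let-7c exceeded let-7b by 2.14 ± 0.45 cycles (SD, n = 4) and in every mouse, although the sequences differ by A17G alone (let-7c base first, positions from the 5′ end). let-7d had Ct 28.9, 33.5, 29.4 and 26.0, and let-7g had Ct 31.6, 32.7 and 28.1 in mice 1, 3 and 4. let-7a, which differs from let-7c by G19A, had no Ct in any sham mouse, and neither had let-7f (G12A and G19A) nor miR-98. let-7e and let-7i had a Ct below 35 in mice 3 and 4 only. The hairpins of let-7a and let-7f on chromosome 13 lie within 2065 bases of that of let-7d, which was a member. How far the assays of this family tell single bases apart was not tested.

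Seeds were read for the 78 members with a sequence, and 15 seeds were shared by 39 of them. Families of 3 or 4 members were the let-7 seed GAGGUAG, the miR-15/16 seed AGCAGCA (miR-195, miR-15b, miR-16 and miR-497), the miR-25/92 seed AUUGCAC (miR-92a, miR-25, miR-363 and miR-367), the miR-99/100 seed ACCCGUA, the seed GCUACAU of miR-221 and miR-222, which the short miR-1928 also carries, and the miR-30 seed GUAAACA. The mean levels spanned under 1 cycle in 6 of the 15 families with a shared seed and under 2 cycles in 9, such as miR-29a and miR-29c (0.50) and miR-27b and miR-27a (0.85). Among all 2278 pairs of members with 4 values, 391 had means within 1 cycle. The larger families were mostly wider, and a span from highest to lowest tends to grow with the number of members. Levels spanned 10.49 cycles in the miR-25/92 family, 9.29 in the let-7 family, 8.74 in the miR-30 family, 6.0 in the family of miR-221 and miR-222, and 4.56 in the miR-15/16 family. The miR-99/100 family, made of miR-99b, miR-100 and miR-99a, spanned 1.68 cycles.

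miR-222 and miR-221, which restrain KIT signalling in endothelial and progenitor cells, were unequal although encoded side by side. miR-222 had Ct 26.9, 29.2, 24.1 and 25.4 and miR-221 had Ct 33.4, 29.96 and 31.4 in mice 1, 3 and 4, with no Ct below 35 in mouse 2. miR-222 exceeded miR-221 by 6.46, 5.89 and 5.99 cycles in these mice. The 3 differences lay within 0.57 cycles of each other, while the hairpins are 505 bases apart.

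Of 23 pairs of members whose hairpins lie within 10 kb of each other on the same strand, 19 had a difference of 1 sign in every mouse that measured both. Among all pairs of members with 4 values 67.7% kept 1 order, but only 10 of the 23 pairs have 4 values. Several of these miRNAs, among them miR-24, let-7c and miR-92a, come from 2 hairpins, so their levels cannot be assigned to the neighbouring hairpin alone. Some pairs, such as miR-34c# and miR-34b-3p, also lie in different assay sets with different references. The median size of the mean difference was 3.28 cycles. For the 10 of these pairs with 4 values, the SD of that difference between mice had a median of 1.33 cycles, beside 1.72 for all pairs of members with 4 values. The steadiest of the 23 pairs, both without a value in mouse 2, were miR-24 over miR-27b by 4.20 ± 0.18 cycles and miR-411 over miR-379 by 3.05 ± 0.20 (SD, n = 3 mice each). miR-34c# and miR-34b-3p were the least steady, with an SD of 3.36.

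Members of single clusters were also split between detected and not detected. In the miR-23/27/24 clusters, miR-24 was detected in all mice and miR-27a and miR-27b in mice 1, 3 and 4, whereas miR-23a had no Ct in any sham mouse and miR-23b had Ct 28.8 and 28.1 in mice 3 and 4 only. In the miR-17-92 cluster, miR-92a and miR-19b were detected in all 4 mice and miR-20a in mice 1, 3 and 4, with Ct 31.0, 25.8 and 25.001. miR-17 had a Ct in mouse 4 alone, at 25.9.

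Arms of a hairpin could be compared in 3 cases. miR-126-3p exceeded miR-126-5p by 2.74, 3.28, 2.42 and 2.75 cycles, a mean of 2.80 ± 0.35 (SD, n = 4). The ratio of these arms was nearly the same in all mice, and both assays share a reference, so it does not depend on it. miR-30e-3p, by name the arm opposite the usual guide, exceeded miR-30e by 5.87 ± 0.80 cycles (SD, n = 3), and by 4.90 in raw Ct. miR-30a and miR-30a-3p differed by -0.049 ± 1.52 cycles (SD, n = 4), with miR-30a higher in mouse 2 only. In raw Ct, miR-30a was the earlier in 3 of 4 mice, so the direction for this pair turned with the reference. The mature miR-30a and miR-30e differ by C13U alone (miR-30a base first), yet their mean levels were -5.78 and -11.89.

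Passenger arms that were members were mostly detected where their partners were not. miR-463# had Ct 27.6, 28.0, 26.9 and 27.9 where miR-463 had Ct 35.1, 35.9, 36.3 and 36.2. miR-29b# was detected in all mice, while miR-29b had a Ct in mouse 2 only, at 34.6. miR-34c# was detected in all mice and miR-34c in mouse 4 alone, where miR-34c had the earlier Ct (30.9 against 31.9). miR-376b# was detected in mice 1, 3 and 4 where miR-376b had no Ct. The fifth, miR-877#, had no partner assay.

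Assays of a single miRNA name for 2 species did not give equal levels. Whether the human-named and rat-named assays match the mouse miRNA base for base is not given in the sources used here. For miR-214 the assay named for human had Ct 25.8, 30.9, 24.9 and 24.0, and the assay named for mouse had Ct 28.1, 25.5 and 24.7 in mice 1, 3 and 4 with none in mouse 2. The former was higher by 2.22 ± 0.82 cycles (SD, n = 3) in level and by 1.25 in raw Ct. For miR-223 the human-named assay was higher by 1.59 ± 1.42 cycles (SD, n = 4) in all mice, but in raw Ct its order changed between mice. The mouse miR-146b assay lay above the rat miR-146B assay in 2 of 3 mice in level, and in raw Ct it was the earlier in all 3.

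**Figure D4:**
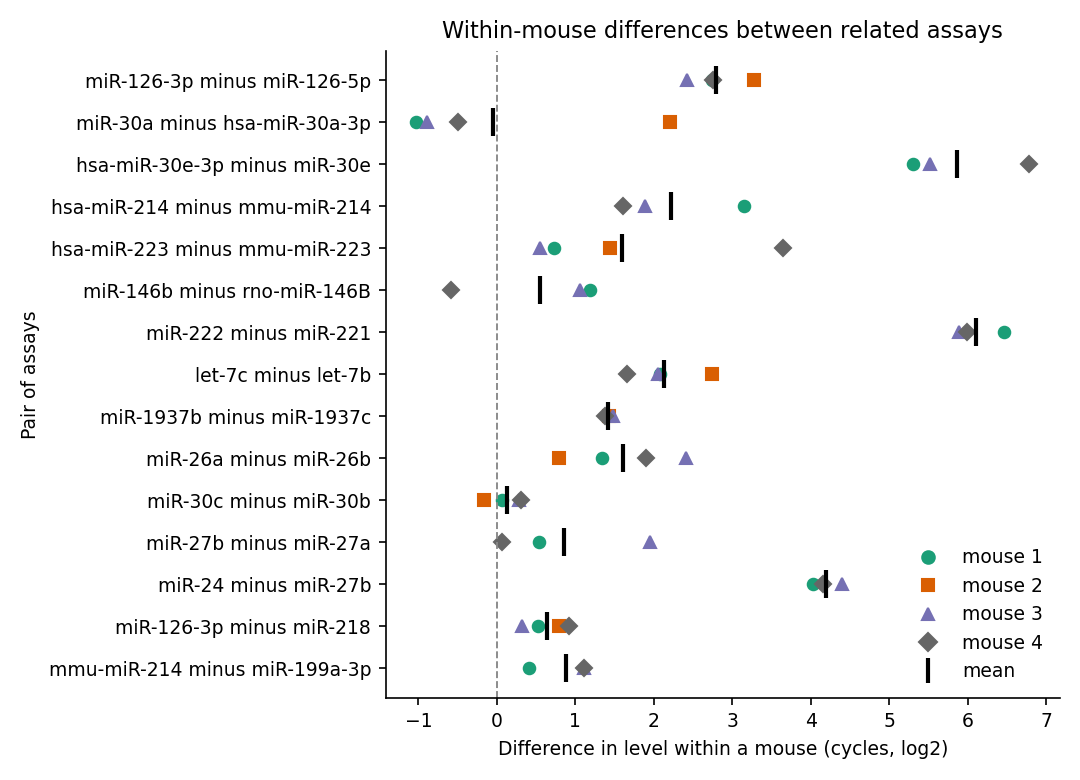
Difference in level (cycles, log2) between the named assays within each sham mouse, 1 symbol for each mouse in which both were below Ct 35, with the mean as a bar and equality as a dashed line. miR-222 lay 5.89 to 6.46 cycles above miR-221 and miR-126-3p 2.42 to 3.28 above miR-126-5p, while miR-30a against miR-30a-3p fell on both sides of 0.

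Cell identity was read from lists of miRNAs known for a cell type. Of 97 listed miRNAs with an assay, leaving out the let-7 list, 43 were members, beside the 14.8% of all assays that were. The lists were built from well-studied miRNAs, so the difference describes the lists and is no sign of a cell type. The lists also share miRNAs: miR-24, miR-126-3p, miR-125a-5p and others stand in both the endothelial and the blood progenitor list.

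Of the 21 endothelial miRNAs, 16 were members and 8 of these were detected in all 4 mice. Their median level was -7.07, against -8.03 for all members, and miR-24, miR-126-3p, miR-92a, miR-218 and miR-125b-5p (-5.57 ± 1.10, SD, n = 4) led them. miR-10a had Ct 27.7, 29.3 and 28.2 in mice 1, 3 and 4. The 5 that were not members were miR-10b and miR-23a, with no Ct in any mouse, miR-23b, detected in 2 mice, and miR-296-5p and miR-101a, detected in mouse 4 alone.

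Of the 15 blood progenitor miRNAs, 12 were members, 6 of them detected in all 4 mice, with a median level of -8.45. Besides those shared with the endothelial list they were miR-155 (-7.23 ± 0.89, SD, n = 4), miR-20a (-8.08 ± 1.99, SD, n = 3), miR-196a (-10.04 ± 0.78, SD, n = 3), miR-181a (-11.47 ± 1.67, SD, n = 4) and miR-146a (-11.92 ± 0.30, SD, n = 3). Of these 5, 4 lay below the median of all members. miR-196b had no Ct in any mouse, and miR-181c was at Ct 35.5 in mouse 4.

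Of the 15 fibroblast and mesenchymal miRNAs, 11 were members, with a median level of -7.67. miR-127 was the highest, followed by miR-214 (-5.51 ± 1.60, SD, n = 4, human-named assay) and miR-152 (-5.72 ± 0.81, SD, n = 4), a regulator of DNA methyltransferase. miR-21, a miRNA raised in fibrosis, had Ct 30.3, 25.1 and 24.5 in mice 1, 3 and 4 and 35.9 in mouse 2. The Dlk1-Dio3 members miR-411, miR-376c and miR-379 had mean levels of -7.67, -9.14 and -9.87. miR-199a-3p was a member at -8.75 ± 1.86 (SD, n = 4), whereas miR-199a-5p from the same hairpins had no Ct in any mouse.

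Most of the mesenchymal assays measured in all mice were low in mouse 2. Of these 6, 5 had their lowest level in mouse 2. Among the 5, miR-152 was only just lowest there (-6.43, beside -6.33 in mouse 3). For each assay the level in mouse 2 was set against its mean in the other mice. The median of these differences was -2.91 cycles for the 6 and 0.68 for all 68 members. miR-199a-3p had levels of -7.89, -11.53, -7.67 and -7.92, and miR-411 had -6.97, -10.20, -7.27 and -6.22. miR-145, the smooth muscle miRNA that is also on this list, had -8.43, -11.66, -9.65 and -8.81. The sixth, miR-140, had its highest level in mouse 2 (-10.64, -10.35, -11.60 and -11.06). Another 6 assays of the list, among them miR-127 and miR-379, were members but not detected in mouse 2, as were 8 of the 16 endothelial, 6 of the 12 progenitor and 41 of all 111 members. With the mean of the shared miRNAs as the reference the list had a median difference of -3.29 beside 0.11 for all 68, with snoRNA202 -3.11 beside 0.29, and in raw Ct -5.96 beside -2.56. On the deposited scale, the 8 endothelial assays with 4 values had a median difference of 0.53, the 4 leukocyte assays 1.74 and the 3 let-7 assays -1.22. The endothelial value rests on the assays that were detected in mouse 2. On that scale, mouse 2 had the lowest level in 21 of the 68 members and the highest in 28.

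Smooth muscle gave 1 member of 2, miR-145, with Ct 29.1, 34.1, 28.6 and 26.7. For its cluster partner miR-143, the human-named assay had Ct 34.6, 36.4, 35.2 and 31.9 and the mouse-named assay 33.5 and 29.6 in mice 3 and 4, so neither entered the repertoire.

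Of the 8 leukocyte miRNAs, 5 were members: miR-150, miR-155, miR-223, miR-146a and miR-146b. The median level of the 5 was -9.44. miR-150, of mature lymphocytes, was the highest, with Ct 26.4, 28.4, 29.0 and 24.6 and a level of -7.08 ± 1.99 (SD, n = 4). miR-223, of myeloid cells, had Ct 33.3, 31.0, 30.5 and 26.4 by the human-named assay, earliest in mouse 4. miR-142-3p, which is common to blood cells, had a Ct in mouse 4 alone, at 31.6, and miR-142-5p had none. The erythroid miRNAs miR-451, miR-144 and miR-486 had no Ct in any sham mouse.

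Of 16 epithelial and tubular miRNAs, 7 were members, and 5 of the 7 belonged to the miR-30 family, which many cell types express. The median level of the 7 was -7.69, also above the median of -8.03 for all members. The defining epithelial miRNAs miR-200a, miR-200b, miR-200c, miR-141, miR-429 and miR-205 had no Ct in any sham mouse. miR-203 had Ct 26.95, 27.6 and 26.2 and miR-204 Ct 29.3, 29.8 and 27.2 in mice 1, 3 and 4. Of the tubular miRNAs, miR-194 had Ct 20.5 in mouse 3 and 23.7 in mouse 4 with none in mice 1 and 2, miR-192 had Ct 29.8 in mouse 4 alone and miR-215 had none. In mouse 3 miR-194 was thus earlier than let-7c, and in mouse 4 later.

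The lists of other organs are short, and their counts stand beside the 14.8% of all miRNA assays that were members. Striated muscle gave 16.7% and embryonic stem cells 7.69%. Of 6 striated muscle miRNAs with an assay, hsa-miR-206 was a member (-12.62 ± 1.10, SD, n = 4), miR-133a had a Ct below 35 in mouse 1 alone, and miR-1, miR-208b and miR-499 had no Ct. None of 9 neural miRNAs was a member, although miR-138 had Ct 33.04 and 33.3 in mice 1 and 3 and miR-383 had Ct 34.9, 35.4, 34.1 and 35.9. The liver miRNA miR-122 had no Ct. Of 13 embryonic stem cell miRNAs, miR-367 was the single member, and miR-302a was detected in mice 1 and 4.

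**Figure D5:**
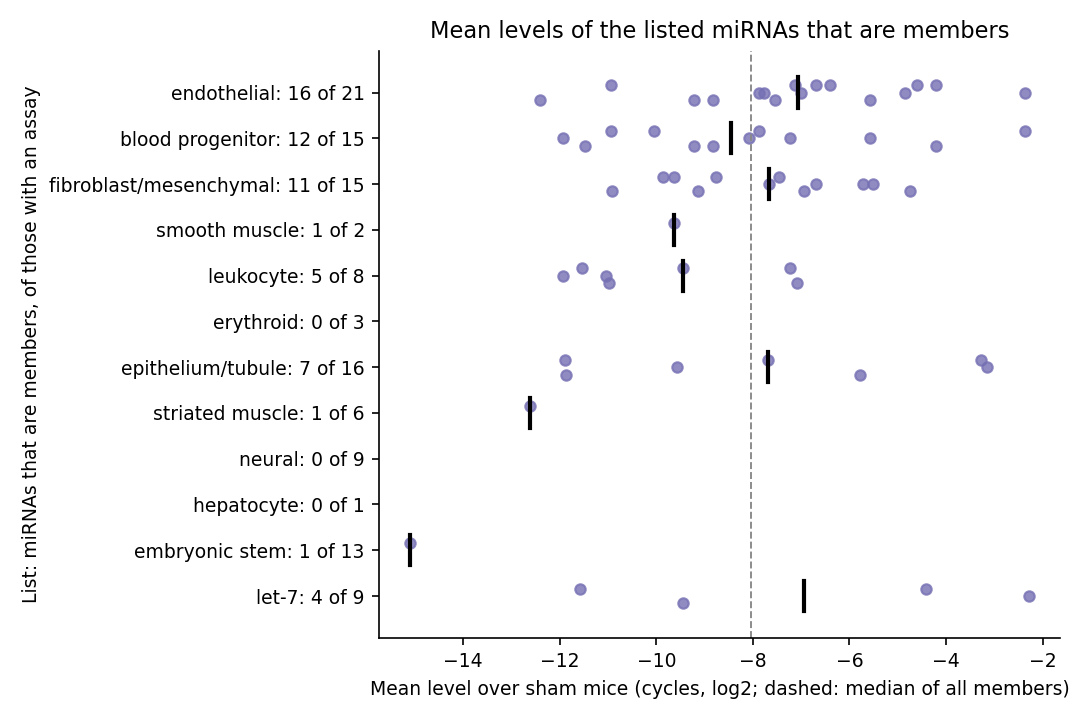
Mean level over sham mice (cycles, log2) of each member assay on the cell type lists, with the count of listed miRNAs that were members beside each list name, a bar for the list median over the highest assay of each miRNA, and a dashed line for the median of all 111 members (-8.03). Endothelial, blood progenitor and fibroblast lists had 16 of 21, 12 of 15 and 11 of 15 members. The erythroid, neural and hepatocyte lists, with 3, 9 and 1 miRNAs with an assay, had none. Of all assays 14.8% were members.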

How the data were processed

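MicroRNAs of CD34+/CD105- renal artery cells were measured by real-time PCR on 2 sets of assays. The deposited tables hold raw Ct and, on a log2 scale, delta Ct, from which the authors had subtracted a reference; Ct minus delta Ct was constant within a mouse and assay set. Only the 4 sham columns were read, and 8 columns of other samples in these tables were not used. A Ct below 35 counted as detected, and wells without a Ct were missing, including 2 wells whose delta Ct came from a Ct of 0. Of the 12 repeated assay names, no sham well had 2 Ct values. Levels are minus delta Ct; means and SDs cover the mice detected, so members with 3 values are averaged over fewer mice. With a single group no test was made and no p-value is given. PCR has no read depth; precision is limited by 4 mice and by late Ct.

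Named miRNAs were the 20 highest and 5 lowest means, the 8 smallest and 8 largest SDs, listed cell type miRNAs, arm and assay pairs, assays nearest the limit, controls, and families of shared seed. Other miRNAs (such as those of steady raw Ct, single clusters or passenger arms) were chosen after their values were seen. The members and lists were chosen with earlier results of these data known. Summaries used pandas and were checked on simulated levels. Alternatives were other Ct limits, numbers of mice, references, fill values, the median, and leaving out each mouse.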

Additional observations from a re-analysis of the deposited data

Results flagged for a closer look

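With 4 mice, a value is listed here when its gap to the nearest other mouse took up most of the range of the 4 values (Dixon's test at the 95% level). Of 76 sets of 4 values examined, 2 met this, and chance alone gives about 1 in 20. miR-199a-3p had a level of -11.53 in mouse 2, where the other mice lay between -7.92 and -7.67. miR-30c had a level of -2.19 in mouse 1, above the -3.53 to -3.37 of the others.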

How the results depend on the processing

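The count of 111 members was 90 at Ct below 32, 76 at Ct below 30, 133 with any Ct, 146 with at least 2 mice and 68 when all 4 mice were required. Leaving out each mouse in turn, with 2 of the remaining 3 required, gave 117 to 143. Without mouse 2 and with all 3 others required, an alternative chosen after seeing the data, it was 109. Of the 20 highest members, 18 to 20 stayed among the highest 20 under other references, fill values, the median and leaving out each mouse. rno-miR-190b lost the first place to miR-1897-5p without mouse 2 and with Ct 35 or 40 for missing values, where its mean level was -0.300 or -1.39. The median SD was 1.06 for members with mean Ct below 30, 1.21 with the mean of the shared miRNAs as reference and 1.30 with snoRNA202. The median Spearman rho between mice was 0.81, 0.84 as Pearson correlation, 0.78 to 0.86 leaving out each mouse and 0.712 with Ct 35 for values not detected, a setting that adds the 43 members with a missing mouse. The 43 listed miRNAs that were members became 22 when all 4 mice were required, 35 at Ct below 32 and 45 to 50 leaving out each mouse. With all 4 mice required the endothelial, progenitor and fibroblast lists had 8, 6 and 6 members. Of the 71 named members, 18 moved by more than 1 SD, all under Ct 35 or 40 for missing values. No paired analysis was possible because 1 group was described and nothing was compared between groups.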
